A study of Equus caballus with 34 samples.

Results

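The NR4A orphan nuclear receptors are the genes NR4A1 (NUR77), NR4A2 (NURR1) and NR4A3 (NOR1), and their transcripts were followed here through the last stages of the horse's dominant follicle. All array probes that the scanner files assign to these genes by name or description were taken, which gave 3 probes, 1 for each of the 3 genes, among 43603 probes outside the controls and 12006 genes with a symbol. The 34 single-colour Agilent arrays carried RNA from the granulosa cells (GC), the layer that lines the follicle cavity, or from the theca wall (TW), the vascularised layer around it, each from early dominant (ED), late dominant (LD) or preovulatory (PO) follicles of Equus caballus. GC ED, GC LD, GC PO, TW ED and TW PO had 5 arrays each and TW LD had 9, and the labels name no strain, age or treatment for any group. A theca wall sample holds vessels and blood cells beside theca cells, and each array averages all cells of its sample, so more cells of a type and more RNA per cell cannot be told apart.

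As background, NR4A receptors bind DNA as transcription factors with no known natural ligand needed for activity, so what they do depends largely on how much of them a cell makes. Their genes are immediate early genes, switched on quickly and briefly after a hormone or growth factor reaches the cell, and luteinizing hormone acting through cyclic AMP is such a stimulus in gonadal cells. In rodent and human ovary, NR4A1 is known as an activator of steroid enzyme genes and is induced by the ovulatory gonadotropin surge.

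The identity of each transcript rests on a single probe of 60 bases, so the probes of NR4A1 and NR4A3 are shown as examples, and that of NR4A2 is described without its letters. The NR4A1 probe lies at chr6:69282153-69282212 on the plus strand, in the coordinates the array files give for the horse (no source used here names their genome build), and holds 33 G or C bases. The NR4A3 probe lies at chr25:29063414-29063473 on the minus strand and holds 27 G or C bases. The files attach each probe to 1 transcript and do not say whether it is in an exon that encodes protein. Both are printed whole in lower case, 5′ to 3′, from the array files.
NR4A1: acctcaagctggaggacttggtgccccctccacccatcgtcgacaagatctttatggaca
NR4A3: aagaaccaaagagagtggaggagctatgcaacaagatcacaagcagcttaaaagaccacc
The NR4A2 probe lies at chr18:26015151-26015210 on the minus strand and holds 21 G or C bases. The receptors are related proteins, but the longest run of bases that any 2 of the 3 probes share was 8, between NR4A1 and NR4A3, and it was 5 between NR4A1 and NR4A2 and 6 between NR4A2 and NR4A3.

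Levels below are log2 of the spot's processed signal minus the array's own 75th percentile, so a level of 0 equals that percentile, and levels of different probes are not compared. Changes are differences of group means with the standard error (SE) of a limma fit across all features of a layer, and a change counts as called where its p, adjusted by Benjamini and Hochberg over all features, is under 0.05. NR4A1 and NR4A2 were well above background on all 34 arrays, and NR4A3 on 10 of them. In what follows, a spot called below background is one that the files do not flag as well above it. No member's spot was saturated or had an outlier flag. Each array had 64.3% to 82.5% of its spots well above background, and 4 TW arrays on slide 7 stood apart by the scatter of their repeated probes (a coefficient of variation of 20.2% to 30.1%, against 5.68% to 9.99% on the other slides). The layers kept their labels: of 7 granulosa markers, all 7 were higher in GC averaged over the stages, and all 8 theca markers were higher in TW, in a comparison where 52.6% of features were called, 22.5% as higher and 30.1% as lower in GC. At PO, where 48.9% of features were called, 5 of 7 granulosa markers were called higher in GC and 8 of 8 theca markers lower. Each layer also gave signal for markers of the other. At ED, CYP17A1 was at 3.46 in GC and 5.39 in TW, and INHA at 3.46 in TW and 5.94 in GC. GC LD 1 had the highest theca marker mean of its group (0.99, median −1.03). TW ED 5 had the highest granulosa marker mean of its group (0.48, median −2.80).

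In the theca wall, all 3 receptor transcripts were higher in preovulatory than in late dominant follicles, and in granulosa cells NR4A1 was, while NR4A2 had no called change there. In TW, NR4A3 was well above background on 4 of 5 preovulatory arrays and on only 1 array at each earlier stage. It thus entered the TW fit mainly through the group in which it is high. NR4A3 had no granulosa signal above background before the preovulatory stage and had one on 4 of 5 preovulatory arrays. The step from early to late dominance gave no called change of any receptor in either limma fit, and the smallest unadjusted p was 0.0886, for NR4A2 in TW.

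**Figure D1:**
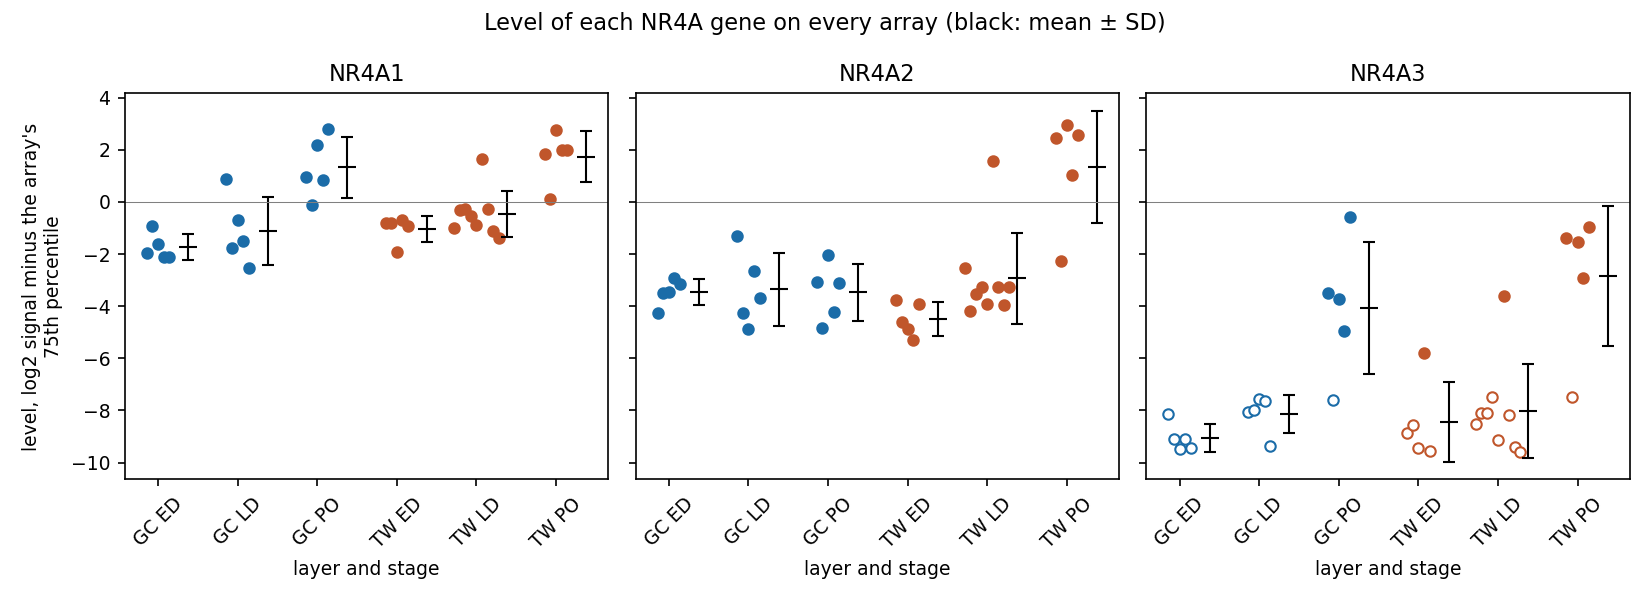
Level of NR4A1, NR4A2 and NR4A3 (log2 processed signal minus the array's 75th percentile, vertical axis) on each of the 34 arrays by layer and stage (horizontal axis). Filled points were well above background and open points were not, and black bars give the group mean ± SD. NR4A1 and NR4A3 have their highest mean at PO in both layers, with overlap of single arrays, and NR4A2 at PO lies between −2.25 and 2.94 in TW and between −4.84 and −2.04 in GC.

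NR4A1 is the member best known in follicle cells. In GC its level on the 5 early dominant arrays was −1.98, −0.92, −1.61, −2.10 and −2.11. On the late dominant arrays it was 0.88, −1.77, −0.71, −1.48 and −2.52, and on the preovulatory arrays 0.94, −0.13, 2.18, 0.82 and 2.79. All 5 preovulatory arrays were above every early dominant array. Only 3 of 5 were above every late dominant array, because GC LD 1 (0.88) was above GC PO 2 (−0.13) and GC PO 4 (0.82). All 5 were above the next highest late dominant array (−0.71).

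The mean NR4A1 level in GC went from −1.12 ± 1.29 (SD, n = 5) at LD to 1.32 ± 1.16 (SD, n = 5) at PO. This rise was 5.44-fold (log2 2.44 ± 0.61 SE, limma adjusted p = 0.0166), in a comparison where 17.4% of 25085 features were called, 6.76% as higher and 10.7% as lower. Of the called features 38.8% were higher, and 49.4% with median centring. Against ED (−1.74 ± 0.50 SD, n = 5) the rise was 8.36-fold (log2 3.06 ± 0.61 SE, limma adjusted p = 0.00125), where 44% of features were called, 21.5% as higher. The change from ED to LD was 0.62 ± 0.61 SE (95% interval −0.58 to 1.82, limma adjusted p = 0.634), and 0.00399% of features were called in that step.

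In the theca wall NR4A1 lay at −0.82, −0.82, −1.91, −0.68 and −0.92 on the early dominant arrays. Across the 9 late dominant arrays it ran from −1.38 over a median of −0.56 to 1.63. The preovulatory arrays gave 1.82, 0.10, 2.74, 1.98 and 2.00. Of these 5, 4 were above every late dominant array; the exception, TW PO 2, was below the late dominant array TW LD 6 but above the other 8.

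From LD (−0.46 ± 0.88 SD, n = 9) to PO (1.73 ± 0.98 SD, n = 5) NR4A1 rose 4.58-fold in TW (log2 2.19 ± 0.44 SE, limma adjusted p = 0.00712), where 15.6% of 27280 features were called, 8.71% as higher and 6.85% as lower. Of the called features 56.0% were higher, and 26.5% with median centring, which moved the median change of all features from 0.03 to −0.18. Ranked by size, this was the 433rd largest rise of that comparison. From ED the rise was 6.77-fold (log2 2.76 ± 0.50 SE, limma adjusted p = 0.0013), with all 5 preovulatory arrays above every early dominant array and 26.2% of features called, 13.8% as higher. Of those called 52.7% were higher, and 30.4% with median centring. ED and LD differed by 0.57 ± 0.44 SE (95% interval −0.29 to 1.42, limma adjusted p = 0.573), where 0.0367% of features were called.

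The preovulatory rise of NR4A1 was also compared between the 2 layers, and no difference was called. The difference between them, tested in 1 fit over all 34 arrays, was 0.25 ± 0.75 SE (95% interval −1.23 to 1.73, limma adjusted p = 0.859) against LD, where 19.6% of 28080 features were called. It was 0.30 ± 0.80 SE (95% interval −1.26 to 1.87, limma adjusted p = 0.805) against ED, where 29.3% were called. Those intervals leave room for a difference of over 1 log2 unit in either direction. GC minus TW at a single stage was −0.71 at ED, −0.66 at LD and −0.41 at PO, with adjusted p between 0.338 and 0.571 in that limma fit.

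NR4A2, the member best known from dopamine neurons, showed another pattern. In GC its level was −4.25, −3.51, −3.45, −2.91 and −3.16 at ED. At LD it was −1.30, −4.25, −4.86, −2.67 and −3.68, and at PO −3.07, −4.84, −2.04, −4.24 and −3.12. The 3 stages overlap throughout, and no preovulatory array was above the highest late dominant one.

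The group means in GC were −3.46 ± 0.50 (SD, n = 5) at ED, −3.35 ± 1.40 (SD, n = 5) at LD and −3.46 ± 1.09 (SD, n = 5) at PO. PO and LD differed by −0.11 ± 0.62 SE (95% interval −1.33 to 1.12, limma adjusted p = 0.926). PO and ED differed by −0.0038 ± 0.62 SE (95% interval −1.23 to 1.22, limma adjusted p = 0.997), and LD and ED by 0.10 (limma adjusted p = 0.948). The intervals therefore do not reach the rise measured in the theca wall.

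There, NR4A2 stood at −3.76, −4.62, −4.86, −5.28 and −3.92 on the early dominant arrays. Late dominant arrays ran from −4.20 over a median of −3.28 to 1.55, the last being TW LD 6, while the other 8 lay at or below −2.54. The preovulatory arrays gave 2.47, −2.25, 2.94, 1.02 and 2.55. All 5 were above every early dominant array, and 3 of 5 above every late dominant one, with TW PO 2 and TW PO 4 below TW LD 6.

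In TW the mean NR4A2 level went from −4.49 ± 0.64 (SD, n = 5) at ED and −2.93 ± 1.75 (SD, n = 9) at LD to 1.35 ± 2.14 (SD, n = 5) at PO. The rise from LD was 19.4-fold (log2 4.28 ± 0.87 SE, limma adjusted p = 0.0074), the 34th largest of 27280 features. The rise from ED was 57.1-fold (log2 5.83 ± 0.98 SE, limma adjusted p = 0.000973). Between ED and LD the difference was 1.56 ± 0.87 SE (95% interval −0.14 to 3.25, limma adjusted p = 0.407), and without TW LD 6 the late dominant arrays still lay mostly above the early dominant ones, 5 of the 8 being above all of them.

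The change in NR4A2 was the one that differed between layers. GC minus TW in the PO minus LD change was −4.39 ± 1.16 SE (limma adjusted p = 0.0089), where 10.8% of features were called as lower. Of the called features 44.8% were higher in this comparison, and 69.1% with median centring. In the PO minus ED change it was −5.84 ± 1.23 SE (limma adjusted p = 0.000913), where 15.7% were called as lower. Of the called features 46.5% were higher there, and 63.2% with median centring. At PO itself the level in TW was 28.0-fold that in GC (GC minus TW −4.81 ± 0.87 SE, limma adjusted p = 4.04e-05), in a comparison where 48.9% of features were called, 28.8% as lower in GC. Of the called features 41.0% were higher in GC with the main scaling, 55.1% with quantile normalization and 73.4% with median centring. Of 5 GC arrays, 4 were below every TW array at PO. At ED and LD the layers differed by 1.03 and −0.42, with adjusted p of 0.392 and 0.721 in the limma fit, and 34.8% and 31.5% of features were called there.

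Layer and slide were nearly nested, since 5 slides held GC arrays, the others TW arrays, and only slides 2 and 8 held an array of both layers, at LD. Within those 2 slides NR4A2 was higher in GC, by 2.90 and 1.28. With slide as a fixed block the difference at PO was −3.06 and no longer called (limma adjusted p = 0.163), whereas the difference between the layers' PO minus LD changes, which compares arrays within slides, was −4.13 (limma adjusted p = 0.0232). The choice of scaling moved the median of all features in the GC minus TW comparison at PO from −0.25 with the main values to 0.53 with median centring, and the NR4A2 difference remained called under each of the 4 other scalings tried.

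**Figure D2:**
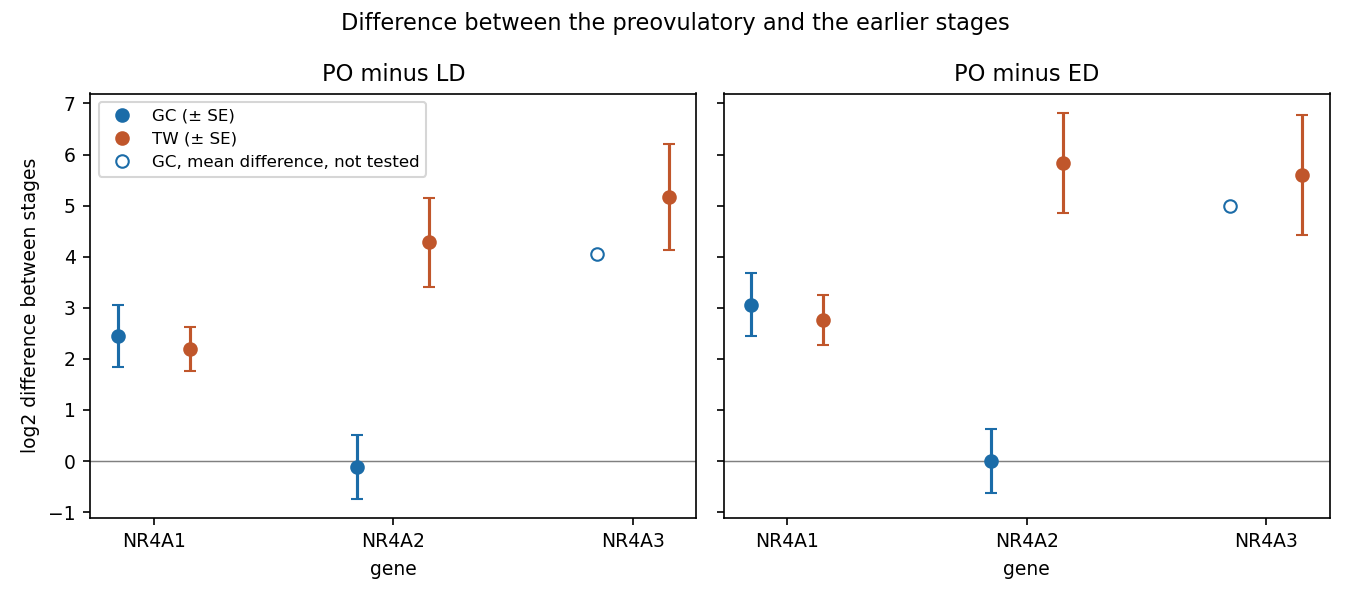
Difference between PO and LD (left) and between PO and ED (right) in log2 units (vertical axis) for each gene (horizontal axis) in GC and TW, with SE bars from the limma fits; the open points give the difference of means of NR4A3 in GC, which was not tested. NR4A2 lies at −0.11 and −0.0038 in GC and at 4.28 and 5.83 in TW, while NR4A1 lies between 2.19 and 3.06 in both layers.

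NR4A3, first described in neurons and as a partner in sarcoma fusion genes, was well above background on the fewest arrays of the 3 members. It was not well above background on any GC array at ED (−8.14, −9.11, −9.48, −9.11 and −9.44) or at LD (−8.06, −7.98, −7.56, −7.65 and −9.38). At PO the GC arrays gave −3.48, −7.59, −3.71, −4.97 and −0.59, of which 4 were well above background and GC PO 2 was not. All 5 lay above the early dominant arrays and 4 above the late dominant ones.

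With 4 of 15 GC arrays above background, NR4A3 did not pass the filter of the GC fit (5 arrays), so its GC difference has no main test. The preovulatory mean of −4.07 ± 2.54 (SD, n = 5) was at least 6.21-fold above LD and at least 7.79-fold above ED. For these bounds each dim array was given the higher of its own signal and the lowest signal that was well above background on it. The bound rests in part on GC PO 5, without which it was at least 3.40-fold above LD and at least 4.27-fold above ED, and without GC PO 2 at least 11.4-fold and at least 14.4-fold. The difference of the measured means was 4.06 against LD and 4.99 against ED, and with no filter on dim probes the same differences had limma adjusted p of 0.0129 and 0.000778.

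In TW, NR4A3 read −8.88, −8.57, −9.43, −5.82 and −9.54 at ED, with TW ED 4 the only array well above background. The 9 late dominant arrays ran from −9.60 over a median of −8.18 to −3.62, with TW LD 6 the only one well above background. Both exceptions were on slide 7. The preovulatory arrays gave −1.37, −7.47, −1.55, −2.93 and −0.95, of which all but TW PO 2 were well above background and above every late dominant array.

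From LD (−8.02 ± 1.79 SD, n = 9) to PO (−2.86 ± 2.69 SD, n = 5) the fitted rise of NR4A3 in TW was log2 5.16 ± 1.03 SE (limma adjusted p = 0.00732). From ED (−8.45 ± 1.52 SD, n = 5) it was 5.59 ± 1.17 SE (limma adjusted p = 0.00292). NR4A3 passed the filter of the TW fit through its 4 preovulatory arrays with TW ED 4 and TW LD 6, and did not pass without slide 7. Both tests thus concern a gene that was kept through the group in which it is high. As most ED and LD arrays were below background, the size is not exact, and in the deposited value table, whose signals have no background subtracted, the rise from LD was 2.49, and 1.50 with normexp, so it is not ranked against other genes. ED and LD differed by 0.43 ± 1.03 SE (95% interval −1.60 to 2.46, limma adjusted p = 0.884).

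Between layers NR4A3 had no called difference. At PO, GC minus TW was −1.21 ± 1.10 SE (95% interval −3.37 to 0.94, limma adjusted p = 0.372), and the difference in the PO minus LD change was −1.11 ± 1.47 SE (95% interval −3.98 to 1.77, limma adjusted p = 0.648). At ED and LD both layers were mostly below background, and the differences of −0.61 and −0.11 compare dim spots.

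The same chromosome carried a further reading beside NR4A3. In the files' coordinates 5 overlapping probes of an unnamed expressed sequence lie 413 to 417 bases from the NR4A3 probe, further along in the direction of the same strand, at chr25:29062937-29063000. The files give them no gene, so they were not counted as members, and since they overlap they count as 1 reading. Their mean level followed the NR4A3 probe across the arrays (r = 0.97 over the 15 GC arrays and r = 0.97 over the 19 TW arrays, a description in which all points share the array and its scaling).

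These unnamed probes passed the filter in GC and were tested there, in a fit with every probe as a feature. Each was well above background on all 5 GC PO arrays, on 1 or 2 of 5 at LD and on none at ED. They therefore passed only through the group in which they are high, and their adjusted p in GC is no separate support for NR4A3. Their mean level there was −8.61 ± 0.62 (SD, n = 5) at ED, −7.15 ± 1.39 (SD, n = 5) at LD and −1.62 ± 2.42 (SD, n = 5) at PO. Probe by probe, the rise from LD to PO in GC was in that fit log2 5.23 to 5.72, with limma adjusted p of 0.00676 to 0.00718. In TW the mean level was −5.95 ± 0.72 (SD, n = 5), −4.82 ± 1.58 (SD, n = 9) and 0.07 ± 2.89 (SD, n = 5), and the rise from LD to PO was 4.74 to 5.12, with limma adjusted p of 0.00563 to 0.00763. At ED the TW arrays ran from −6.63 to −4.88 and the GC arrays from −9.48 to −7.97, with none of the 5 probes well above background on those GC arrays. The layers did not overlap there, and this difference was not tested.

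**Figure D3:**
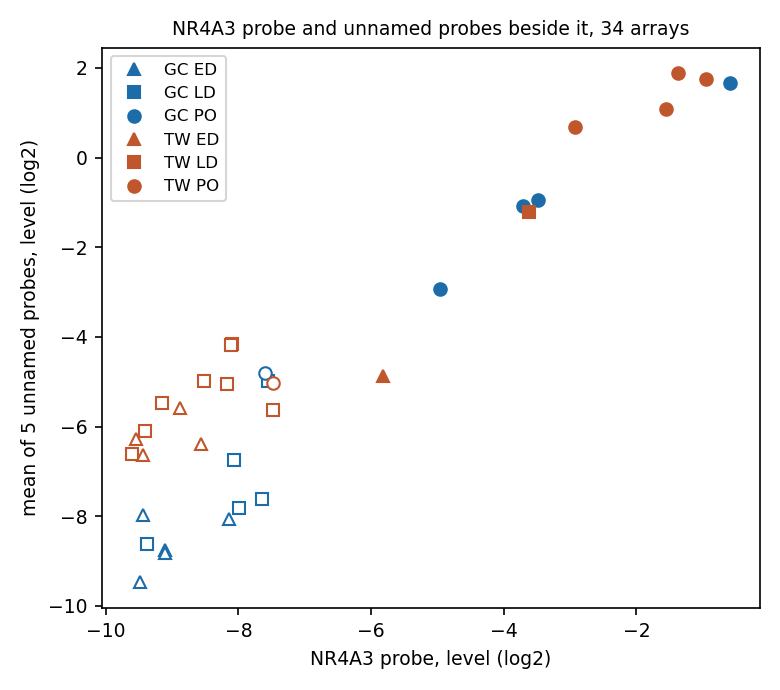
Mean level of the 5 unnamed probes (vertical axis, log2) against the level of the NR4A3 probe (horizontal axis, log2) on the 34 arrays; colour gives the layer, shape the stage, and open symbols mark arrays on which the NR4A3 probe was not well above background. Where the NR4A3 probe is below background, the unnamed probes still separate TW arrays from most GC arrays.

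The arrays were also compared within slides. On every one of the 5 GC slides NR4A1 was higher at PO than at LD, by 0.07 to 5.31, and on every one of the 5 TW slides by 0.38 to 3.45. NR4A2 was higher at PO on all 5 TW slides, by 1.29 to 6.54, and on 2 of 5 GC slides. NR4A3 was higher at PO on all 5 slides of each layer, by 0.39 to 8.79 in GC and by 0.63 to 8.65 in TW, with GC slide 3 and TW slide 4 giving the smallest values. The smallest NR4A1 difference in GC was on slide 2, which held GC LD 1. From ED to LD, NR4A2 in TW was higher at LD on all 5 slides, by 0.67 to 4.42, although that step was not called in the fit. NR4A3 in GC was higher at LD on all 5 slides as well, by 0.059 to 1.92, between spots below background. NR4A1 was higher at LD on 3 of 5 slides in each layer.

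**Figure D4:**
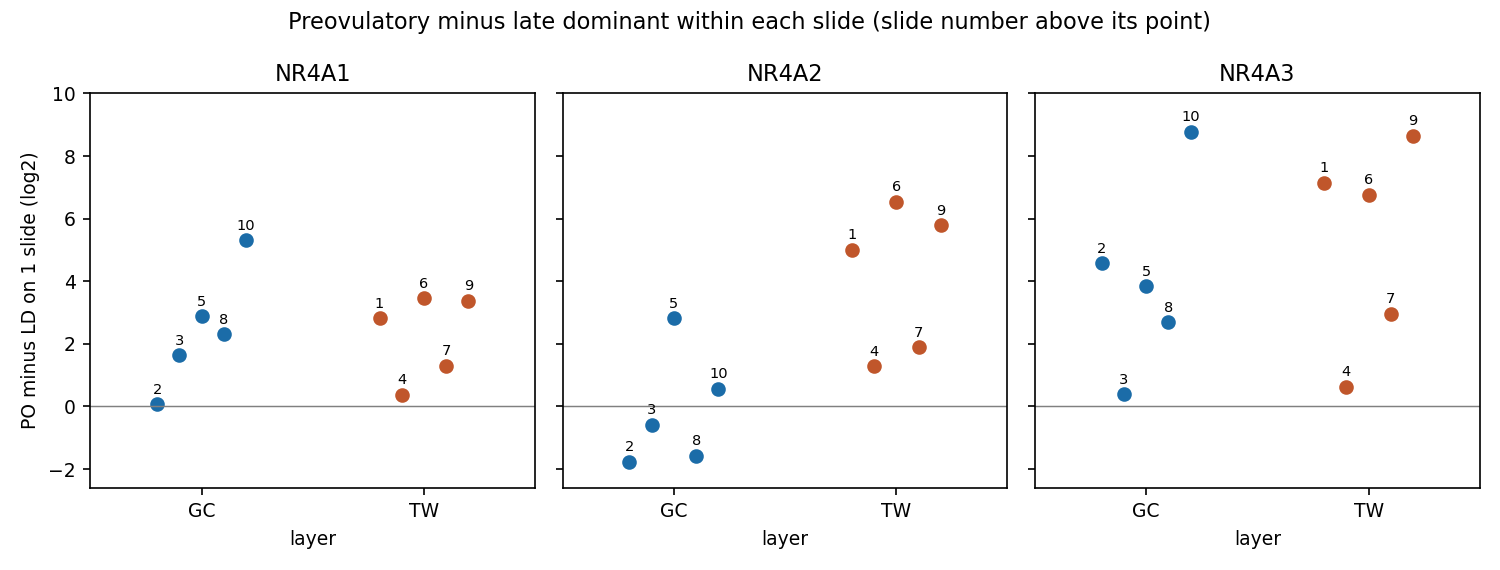
PO minus LD in log2 units (vertical axis) within each slide for NR4A1, NR4A2 and NR4A3, by layer (horizontal axis), with the slide number above each point. The mean was used on slides 6 and 7, which held 2 TW LD arrays each. NR4A2 in GC lies on both sides of 0, from −1.77 to 2.82.

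The levels of the 3 receptors were correlated in TW. Over the 19 TW arrays the correlation of their levels was r = 0.94 for NR4A1 with NR4A2, r = 0.95 for NR4A1 with NR4A3 and r = 0.91 for NR4A2 with NR4A3. Spearman's rho was 0.70, 0.92 and 0.63, lower where NR4A2 takes part, and all of these describe arrays that fall into stages. Over the 15 GC arrays NR4A1 and NR4A3 had r = 0.89, whereas NR4A2 had r = 0.33 with NR4A1 and r = 0.16 with NR4A3. Of the single arrays, TW LD 6 was high and TW PO 2 low within its stage for all 3 genes.

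Among genes well above background on every array of a layer, those with the levels most like each receptor were also listed. In TW, the 5 most like NR4A1 were NR4A2 (r = 0.94), DUSP1 (r = 0.94), which encodes a phosphatase of MAP kinases, ZCCHC14, TOX4 and the clock gene PER1. For NR4A2 they were FEM1C (r = 0.96), ZCCHC14, NDEL1, TGIF1 and NR4A1, and for NR4A3 MPP3 (r = 0.96), PATL1, NR4A1, NDEL1 and ACOT9. In GC, the 5 most like NR4A1 were PATL1 (r = 0.94), BTBD9, ZNF473, NAB2, which encodes a corepressor of EGR factors, and SLC35E4. NR4A2 in GC had among its own UAP1 (r = 0.87), NR5A2, a nuclear receptor of granulosa cells, MGP and WAC, and NR4A3 had EPG5 (r = 0.96), USP14, SHB, TIMM29 and PSMA2, although 11 of its 15 GC levels are below background.

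The other immediate early genes are the class to which the receptors belong. In TW, 10 of 19 tested were higher at PO than at LD and none lower (8.71% of all features were called higher), with a median change of 1.39 against 0.03 over all features. The called ones included IER3 (log2 3.07), the activator protein 1 genes FOSL2 (2.15) and JUNB (2.10), the stress factor ATF3 (2.49), DUSP1 (1.89), EGR3 (1.58) and MYC (1.24). FOS (0.44), EGR1 (0.48) and FOSB (0.28) were not called. In GC, 4 of 19 were higher and none lower (6.76% of all features were called higher, median 1.37 against 0.01): IER3 (4.04), EGR4 (2.66), FOSL1 (2.42) and DUSP1 (1.87). From ED to PO the counts were 13 of 19 in GC (median 2.73, 21.5% of all features called higher) and 12 of 19 in TW (median 1.70, 13.8% of all features). From ED to LD limma called none in either layer, where 0.00399% of features in GC and 0.0367% in TW were called. The median in that step was 1.43 in GC and 0.36 in TW. At an unadjusted p under 0.05, 10 of 19 were higher in GC and 4 of 19 in TW, and none lower.

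The ovulatory genes are those which luteinizing hormone is known to induce before ovulation. In TW 7 of 13 were higher at PO than at LD and none lower (median 1.60, 8.71% of all features called higher), among them the EGF-like factors EREG (4.31) and AREG (3.74), TNFAIP6 (2.96), which stabilises the matrix around the oocyte, and the prostaglandin synthase PTGS2 (1.75). In GC 2 of 13 were higher (median 1.05, 6.76% of all features), PTGS2 (3.91) and the transcription factor CEBPB. From ED to PO, 8 of 13 were higher in GC (median 3.82, 21.5% of all features called higher) and 10 of 13 in TW (median 2.46, 13.8% of all features), and in GC the median was 2.98 already from ED to LD, where none was called by limma and 8 of 13 were higher at an unadjusted p under 0.05. At ED only 8 to 10 of the 13 were well above background on a GC array, so such sizes are not exact. EREG and AREG in GC changed by 1.34 and 0.16 from LD to PO, which was not called, and by 7.36 and 4.23 from ED, which was.

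The difference between layers was tested for these lists as for NR4A2. In the PO minus LD change none of the 20 immediate early and 13 ovulatory genes tested had a called difference by limma, and 2 and 3 of them had an unadjusted p under 0.05. Of all 28080 features, 19.6% were called in that change, 10.8% as lower. In the PO minus ED change 2 of 20 and 2 of 13 had one, and all 4 were higher in GC minus TW, where 13.6% of features were called as higher. They were FOSL1 (3.07), MYC (1.66), PTGS2 (2.59) and CEBPB (3.53), in the direction opposite to NR4A2 (−5.84).

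**Figure D5:**
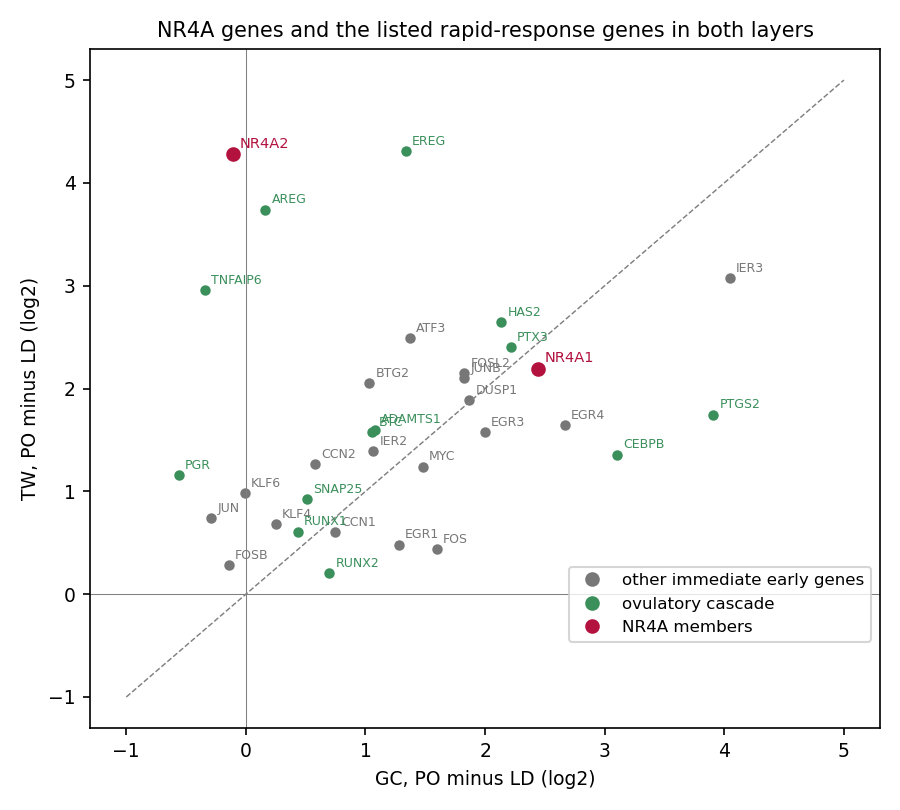
Change from LD to PO in TW (vertical axis, log2) against the change in GC (horizontal axis, log2) for NR4A1, NR4A2, the other immediate early genes and the ovulatory genes tested in both layers; the dashed line marks equal change. NR4A1 lies near the line, and NR4A2 lies at −0.11 in GC and 4.28 in TW, the far upper left.

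Luteinizing hormone receptor and cyclic AMP genes, a signalling route to the receptors, came next. LHCGR, the receptor gene itself, had changes from LD to PO of −0.29 in GC and −1.11 in TW, neither called (limma adjusted p = 0.809 and 0.257). In TW 4 of 13 tested were higher and none lower (8.71% of all features called higher), namely the phosphodiesterases PDE4B (2.33) and PDE4D (2.07), which break down cyclic AMP, CREM (1.20), a cyclic AMP responsive factor, and the adenylyl cyclase ADCY3 (1.09). In GC 1 of 12 was higher, PDE4D (1.51), and 1 lower, ADCY3 (−1.78), shares near those of all features (6.76% and 10.7%). From ED to PO, 6 of 12 were higher in GC and 1 lower (median 0.68, 44% of all features called, 21.5% as higher). In TW, 4 of 13 were higher and 1 lower over that span (median 0.27, 26.2% of all features called, 13.8% as higher). Of 13 tested for a difference between layers in the PO minus LD change, 2 were called, both lower in GC minus TW, as NR4A2 was. They were ADCY3 (−2.87, limma adjusted p = 0.00153) and PDE4B (−2.72, limma adjusted p = 0.0239), and PDE4B did not pass the filter of the GC fit. Of all features, 10.8% were called lower there, and counts among 13 genes do not set the list apart from this share.

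Partners and coregulators of the receptors, which include the retinoid X receptors with which NR4A1 and NR4A2 can pair, had 1 of 7 tested called in TW, the coactivator NCOA3 (0.60), and 0 of 7 in GC by limma (1 at an unadjusted p under 0.05). Of all features, 8.71% were called higher in TW and 17.4% were called in GC, and counts among 7 genes do not set the list apart from these shares. RXRA changed by 0.30 in TW and 0.02 in GC. RXRG and NR0B1 did not pass the filter in either layer.

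Steroid genes described as NR4A targets in other species were not called higher from LD to PO in either layer. In TW none of 6 was called higher by limma, also at an unadjusted p under 0.05, and 1 was lower, CYP11A1, the side-chain cleavage enzyme (−0.86, limma adjusted p = 0.0461). Of all features, 8.71% were called higher in TW and 6.85% lower, and 17.4% were called in GC. Counts among 6 genes do not set the list apart from these shares. In GC none of 6 was called in either direction by limma, also at an unadjusted p under 0.05 (0 of 6), with STAR, the cholesterol transport protein, at 1.34 and CYP11A1 at 1.27. CYP17A1, the androgen-making enzyme, changed by −0.25 in TW and −0.31 in GC.

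Markers of other cell types moved with the rise in TW. Of 9 leukocyte markers tested there, 7 were higher at PO than at LD (median 1.55, 8.71% of all features called higher), and the mean level of the 9 was −1.08 to 0.19 at PO against −2.43 to −1.21 at LD, where TW LD 6 was the highest array. Of 8 endothelial markers 3 were higher (median 1.08), with mean levels of −1.34 to −0.90 at PO and −2.92 to −1.21 at LD. The count was 5 without slide 7 and 6 without TW LD 6, and the share of all features called there is not given here. Theca markers had 0 of 8 called by limma (1 at an unadjusted p under 0.05) and a median of −0.24. In GC from LD to PO limma called 0 of 9 leukocyte markers (median 0.12, 4 at an unadjusted p under 0.05) and 0 of 4 endothelial markers (median 0.09, 0 at an unadjusted p under 0.05), and TEK and EMCN were below background on all GC arrays. Of 7 granulosa markers in GC, 2 were lower at PO than at LD (10.7% of all features called lower), INHBB, an inhibin and activin subunit (−3.53), and HSD17B1, an estradiol-making enzyme (−4.43).

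Some smooth muscle and pericyte markers were higher in GC at PO than at ED, as NR4A1 was, and others were not. From LD to PO 0 of 5 tested were called by limma (2 at an unadjusted p under 0.05, median 1.13), and from ED to PO 4 of 5 were higher (median 3.32, 21.5% of all features called higher). These were CNN1 (7.93), DES (4.47), TAGLN (3.32) and ACTA2 (1.23), and CNN1 and DES were below background on all GC ED arrays and well above it on all GC PO arrays. RGS5 lay at −4.97 at ED and −4.66 at PO in GC and was not called by limma. MYH11 was not well above background on any GC array. At PO the mean level of CNN1 was −0.51 in GC and −1.08 in TW. The mean level of the 6 markers on the array was −6.58 to −5.77 at ED, −6.39 to −3.04 at LD and −3.47 to −3.08 at PO in GC, against −0.71 to 0.19 at PO in TW. In TW 1 of 6 was higher from LD to PO, RGS5 (0.81). Of 9 leukocyte markers in GC, 2 were higher from ED to PO, CD14 (24.2-fold) and CD68 (5.91-fold), and 1 was lower, CD3E (−3.02 on the log2 scale). NR4A genes are also expressed in leukocytes and vessel cells, and the part of other cell types in the rises of either layer was not tested.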

How the data were processed

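Total RNA was amplified from an oligo(dT) primer and labelled with Cy3, per the labels' protocols. The deposited intensity values come from Agilent Feature Extraction 9.5.3.1, per the file headers (the submitters' processing notes name 9.1). The authors' processed intensity has a fitted spatial background subtracted and a detrending factor divided out, per the file headers, with no scaling between arrays. The deposited value table holds log2 values of unstated processing. Its columns have a median of 7.29, correlate at 0.99999 or more with quantile-normalized log2 mean signal and differ from it by at most 0.0657, which settles its scale and centring.

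From these, log2 of the processed intensity minus each array's 75th percentile was computed (R 4.3.3, limma 3.58.1), leaving out controls and outlier-flagged spots. Each gene had 1 probe, that with the highest mean over 34 arrays, and unnamed probes stood alone. Features well above background on 5 arrays or more were fitted with lmFit and eBayes, within a layer for stages and over all arrays for layers, with Benjamini-Hochberg adjustment over all features. All 9 TW LD arrays entered, as the labels do not say which 5 the design text compared. Replicate numbers follow accession order. The design text calls samples biological replicates, and no source used here says whether samples share a mare. No 2 arrays were identical, and arrays of a group correlated at 0.913 to 0.988. Named genes are the members, list genes called or needed as a reference, and the 5 genes most correlated with each member in a layer, of which 1 is not reported here. Symbols missing in the files came from a RefSeq gene table, used for names only. The members and lists were chosen with earlier results of these data known. The fit was tested on simulated data. Alternatives covered scaling, background, filters, probes, slide blocks, array weights and leaving out arrays. The number of arrays limits the precision.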

Additional observations from a re-analysis of the deposited data

Results flagged for a closer look

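Dixon's test at the 95% level was applied to the highest and lowest array of each member in each of the 18 gene and group combinations, and chance alone flags about 1 in 20 groups. TW LD 6 stood apart above the other late dominant theca wall arrays for NR4A1 (1.63, the next highest being −0.27), for NR4A2 (1.55, next −2.54) and for NR4A3 (−3.62, next −7.48). NR4A1 was low on TW ED 3 (−1.91, next −0.92). NR4A3 was high on TW ED 4 (−5.82, next −8.57), which shares slide 7 with TW LD 6. On GC ED 1 (−8.14) and GC LD 5 (−9.38) NR4A3 stood apart from spots that were, like these, below background.

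TW LD 6 also had the highest mean level of the 9 leukocyte markers among the late dominant theca wall arrays (−1.21). Its 20 other immediate early genes averaged −1.07 and its 13 ovulatory genes −1.87, the highest of that group for both lists. TW PO 2, the lowest preovulatory theca wall array for all 3 receptors, was also the lowest of its group for the immediate early genes (−1.47) and for the ovulatory genes (−2.23).

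The stage change of NR4A2 differed between the layers by the interaction test of limma, by −4.39 (GC minus TW) from LD to PO and by −5.84 from ED to PO.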

How the results depend on the processing

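The 11 called receptor results were recomputed in 271 combinations of a result and a setting, and 270 kept their direction and their call. The exception was NR4A2 in GC minus TW at PO with slide as a fixed block (−3.06, limma adjusted p = 0.163). These combinations share most arrays, and some change nothing, as leaving out slide 7 removes no GC array. Those of NR4A3 in TW concern a gene kept through the group in which it is high. None of the results that were tested but uncalled in the main fits became called in any setting, but several small ones changed sign. NR4A3 in GC had no main test and is not among them. In the 2 settings that gave it a value, its rise from LD to PO had limma adjusted p of 0.00608 and 0.0129. From ED to PO it was 0.000377 and 0.000778, and from ED to LD 0.662 and 0.668. NR4A1 in GC minus TW at PO became 0.37 with median centring. Its difference between layers in the PO minus LD change became −0.14 with quantile normalization, −0.19 with normexp, −0.12 in the deposited table and −0.015 without slide 7, and ran from −0.16 to 0.75 when arrays were left out one at a time. For PO minus ED under the first 3 of these it was −0.14, −0.13 and −0.064, and −0.10 to 0.67. NR4A2 in GC from LD to PO became 0.29 with array weights (−0.49 to 0.40 with arrays left out, where GC LD 1 gave 0.40). From ED to PO it became 0.015 with quantile normalization, 0.038 under median centring, 0.087 after normexp, 0.084 in the deposited table and 0.57 with array weights (−0.36 to 0.34), and from ED to LD it ran from −0.41 to 0.48. NR4A2 in GC minus TW at LD became 0.043 with median centring, 1.07 with slide as a fixed block, 0.17 without slide 7 and 0.20 with array weights (−0.93 to 0.14 with arrays left out, 0.14 being without TW LD 6). NR4A3 in GC minus TW became 0.020 with normexp, 0.29 with the slide block and 0.051 without slide 7 at ED (−0.88 to 0.051, the latter without TW ED 4). At LD it became 0.35 both with quantile normalization and under median centring, 0.81 with the slide block, 0.50 without slide 7 and 0.11 with array weights (−0.30 to 0.44). NR4A3 in TW from ED to LD ran from −0.12 to 1.09, and its difference between layers from ED to PO from −1.76 to 0.28. The cause of these shifts was not tested.

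The rise of NR4A3 in TW from LD to PO was 1.50 with normexp and 2.49 in the deposited table, against 5.16. With the stricter filter, and in the TW stage comparisons without slide 7, NR4A3 had no value, and in GC it had one only with no filter or with all 34 arrays in 1 fit. Features called in PO minus LD numbered 2081 to 9060 in GC (main 4373) and 1340 to 9584 in TW (main 4245). In LD minus ED they numbered 0 to 1623 in GC (main 1) and 0 to 488 in TW (main 10). In GC minus TW at PO the number called was 13722, and 4543 with slide as a fixed block. As an alternative chosen after seeing the data, TW LD 6, TW PO 2 or slide 7 was left out. Immediate early genes called higher in TW from LD to PO then numbered 9 to 13 (10 with all arrays). Ovulatory genes numbered 8 to 9 (7 with all arrays), leukocyte markers 7 (7) and endothelial markers 3 to 6 (3). With all arrays 8.71% of all features were called higher. The share without those arrays is not given here, so no change of the lists is read from these counts. The same counts in GC are not reported here. By replicate number, no paired analysis was possible because the labels share none between groups, and slide, which holds the stages of a layer together, was the block tried instead.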
